A study of Homo sapiens with 6 samples.

Results

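The 38 genes described here are the enzymes of glycolysis, the transporters of glucose and lactate, the kinases that steer glucose carbon into or away from glycolysis, and target genes of the hypoxia-inducible factor (HIF). They were listed by name and role, with earlier results of these data known, and are 38 of the 21619 genes counted. By role they were split into 17 glycolytic enzymes, 4 regulatory kinases, 4 transporters, 12 hypoxia targets and HIF1A itself. All 38 passed the filter on low counts. The cells were MDA-MB-231, an established human triple-negative breast cancer line, engineered to carry ribosomal protein L10a fused to EGFP. In all 3 groups the cells were kept in 0.2% serum for 24 h. They then had 6 h with no added factor (untreated), with 30 ng/mL of the chemokine CXCL12 and 10 ng/mL of the growth factor IGF1 (lower dose), or with 300 ng/mL CXCL12 and 100 ng/mL IGF1 (higher dose). The tagged ribosomes were pulled down with an antibody to GFP (translating ribosome affinity purification), and the polyadenylated RNA bound to them was sequenced from 2 biological replicates per group, lettered a and b.

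Glycolysis breaks glucose down to pyruvate, which lactate dehydrogenase can turn into lactate for export. HIF is a pair of an oxygen-regulated alpha subunit, such as HIF1A, and a stable beta subunit. With oxygen present, prolyl hydroxylases mark the alpha subunit for destruction. When oxygen is low, or when growth factor signalling raises its synthesis, HIF binds short DNA elements whose core reads ACGTG or GCGTG and turns on genes of glycolysis, survival, vessel growth and matrix formation. Many glycolytic enzyme genes are themselves HIF targets, so the enzymes and the other targets are 2 overlapping views of the same programme. MDA-MB-231 is known as a strongly glycolytic line.

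Each library held 26255079 to 30280322 reads on genes, and 3 reads, the limit that a count of 0 allows, came to 0.0991 to 0.114 CPM (read counts scaled to library size, the usual edgeR unit). Of 13548 genes tested, an adjusted p under 0.05 (edgeR quasi-likelihood F test, Benjamini-Hochberg) was reached by 4418 at the lower dose against untreated, by 7626 at the higher dose against untreated and by 4612 between the doses. A gene past that threshold is said below to have risen or fallen. Values are relative to the other genes of a library. With 2 libraries a group, p-values measure only the spread between these libraries. Groups without overlap were common. At the lower dose against untreated 64.4% of all genes tested had no overlap of the 2 groups, in either direction. The share was 76.3% at the higher dose against untreated and 64.8% between the doses. Lower pull-down of an mRNA can come from fewer cells expressing it, less mRNA per cell, fewer ribosomes on it or lower recovery, and these cannot be told apart here. Markers of the line were present, with VIM at 3588 to 3748 CPM in untreated cells and CDH1 and ESR1 at 0.342 CPM or less there. ERBB2, EPCAM and GATA3, listed as low or absent, stood at a mean of 77.2, 12.4 and 9.71 CPM in untreated cells. Markers of other cell types summed to 10.6 to 12.8 CPM in all 6 libraries, with CD3E and CDH5 at 0 reads.

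Most of the 38 genes fell or did not pass the test. At the lower dose 20 fell, none rose and 18 did not pass the test, where 32.6% of all genes tested were called, 15.9% as lower and 16.7% as higher. At the higher dose 18 fell, 6 rose and 14 did not pass, where 56.3% of all genes were called, 28.2% as lower and 28.1% as higher. Between the doses 10 fell, 8 rose and 20 did not pass, where 34.0% of all genes were called, 17.6% as lower and 16.4% as higher. The median log2 fold change of the 38 was −0.12 for the lower dose against untreated, −0.11 for the higher dose against untreated and −0.01 for higher against lower. Over all genes tested these medians were −0.0021, −0.0008 and −0.0009. The 3 comparisons share libraries, so their results are not independent. Changes were small. At the higher dose 10 of the 38 fell and 2 rose by at least 1.2-fold, where 31.3% of all genes tested passed that fold and the test, 16.4% as lower and 14.9% as higher. Only SLC2A1 and NDRG1 both passed the test and changed at least 1.5-fold there, 2 of the 38, beside 6.90% of all genes tested. CA9 and SLC16A1, with few reads, had folds of 1.57 and 1.58 there and did not pass.

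**Figure D1:**
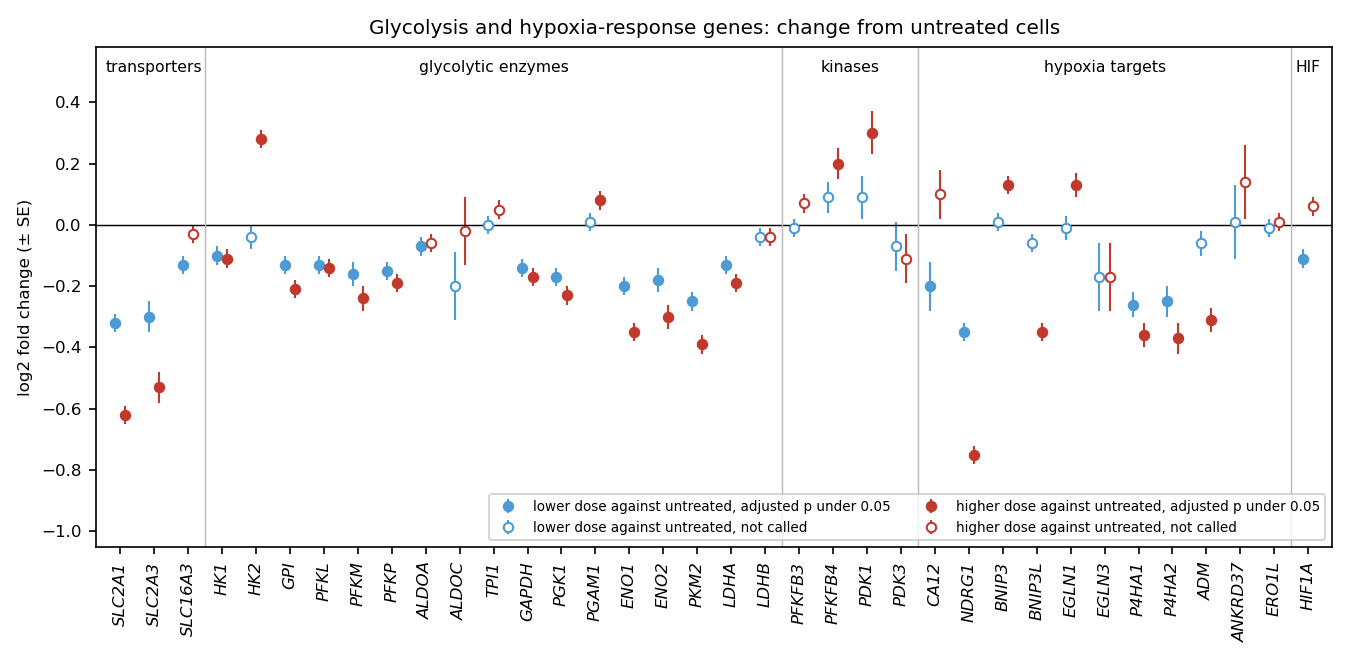
Log2 fold change against untreated cells (vertical axis, bars are the standard error) for 36 of the 38 genes, ordered by role, at the lower dose (blue) and the higher dose (red). Filled circles have an adjusted p under 0.05 and open circles do not. SLC16A1 and CA9, with at most 35 and 31 reads a library, are left out. SLC2A1 and NDRG1 lie lowest, at −0.62 and −0.75 for the higher dose, and HK2 and PDK1 highest among the filled circles, at 0.28 and 0.30.

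The levels spanned more than 4 orders of magnitude. In untreated cells, per kilobase of transcript, GAPDH was highest at a mean of 2812 CPM per kb. ENO1 followed at 1281, PKM2 at 1207 and LDHA at 952 CPM per kb. SLC16A3, the lactate exporter MCT4, was the highest transporter at 548 CPM per kb, and BNIP3, at 127 CPM per kb, was the highest of the hypoxia targets. The lowest were CA9, the cell-surface carbonic anhydrase that marks hypoxic tumour regions, at 0.335 CPM per kb, and SLC16A1, the lactate transporter MCT1, at 0.153 CPM per kb. CA9 had 12 to 31 reads a library and SLC16A1 had 15 to 35. Neither passed the test in any of the 3 comparisons, although both had higher means after treatment.

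**Figure D2:**
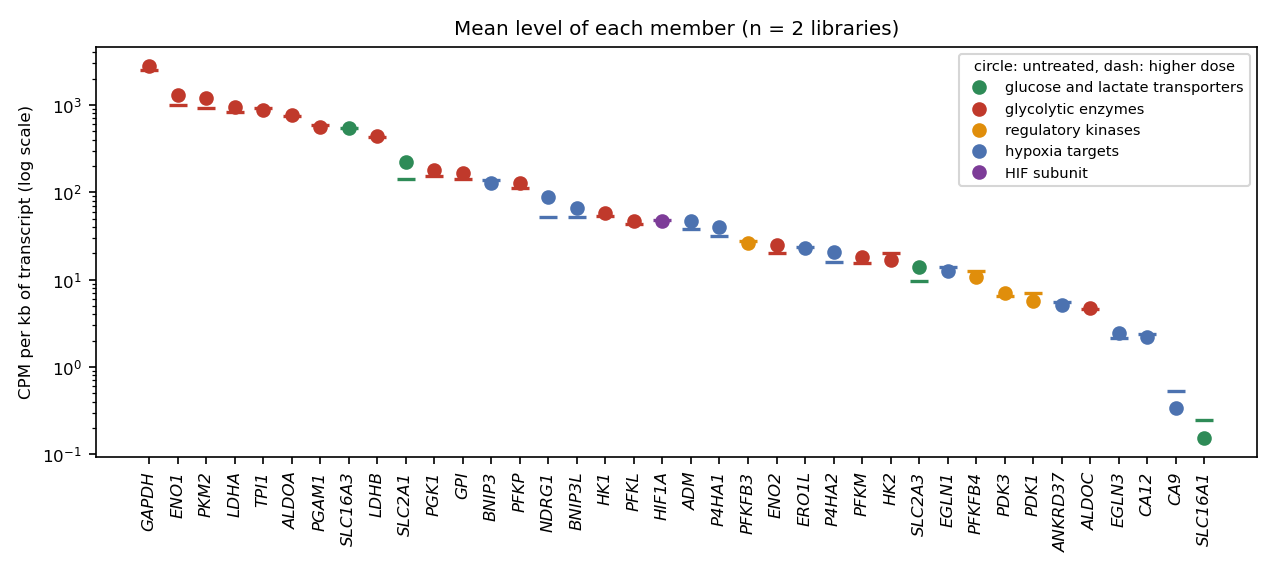
Mean CPM per kilobase of transcript (vertical axis, log scale) of the 38 genes, ordered by level in untreated cells, with circles for untreated cells and dashes for the higher dose (n = 2 libraries each). Colours mark the roles. Enzymes occupy the first 7 places, from GAPDH at 2812 to PGAM1 at 553 CPM per kb, and the hypoxia targets lie between 127 (BNIP3) and 0.335 (CA9).

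SLC2A1 and SLC2A3, the glucose transporters among the 38, fell at both doses. SLC2A1 encodes GLUT1, the main glucose transporter of most tumour cells. Its level was 824 and 789.6 CPM in untreated cells (replicates a and b), 643 and 651 at the lower dose, and 529 and 521 at the higher dose. The 3 groups did not overlap and stood in order of dose. Its log2 fold change was −0.32 ± 0.03 (SE) at the lower dose (adjusted p = 4.36e-14), −0.62 ± 0.03 at the higher dose (adjusted p = 1.23e-26) and −0.30 ± 0.03 between the doses (adjusted p = 2.93e-13).

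SLC2A3 encodes GLUT3, a glucose transporter of higher affinity. Its level was 57.5 and 51.9 CPM in untreated cells, 44.8 and 43.9 at the lower dose, and 37.7 and 38.1 at the higher dose. The groups again did not overlap. The log2 fold change was −0.30 ± 0.05 at the lower dose (adjusted p = 8.18e-07) and −0.53 ± 0.05 at the higher dose (adjusted p = 5.89e-14). Reads can be shared with the closely similar SLC2A14, so its level is less certain. The share of SLC2A3 in the reads per kilobase of SLC2A1 and SLC2A3 together stayed between 5.80% and 6.41% in all 6 libraries.

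SLC16A3, the lactate exporter, fell at the lower dose, from 1127 and 1068 CPM to 994 and 1015, a log2 fold change of −0.13 ± 0.03 (adjusted p = 0.000131). At the higher dose it was read at 1081 and 1067 CPM, which overlapped the untreated libraries (log2 fold change −0.03 ± 0.03, adjusted p = 0.339). It was called lower there without untreated replicate b (−0.07, adjusted p = 0.0388) and under a length and GC correction (−0.06, adjusted p = 0.0175). Between the doses it rose by 0.10 ± 0.03 (adjusted p = 0.00328). That last call was lost without lower dose replicate a (adjusted p = 0.0519) and without higher dose replicate a (adjusted p = 0.065).

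Among the 17 glycolytic enzymes 12 fell and none rose at the lower dose, where 15.9% of all genes tested fell, and 11 fell and 2 rose at the higher dose, where 28.2% fell. Their summed level was 19705 and 19018 CPM in untreated cells, 17537 and 17604 at the lower dose, and 17122 and 16861 at the higher dose. Enzyme mRNAs thus took 1.97% and 1.91% of the reads on genes in untreated cells, 1.75% and 1.77% at the lower dose, and 1.71% and 1.68% at the higher dose. No untreated library overlapped a treated one in this sum. The markers of the line fell too, all 7 at the higher dose, and their sum was 7220.0 and 7104 CPM in untreated cells and 5507 and 5482 at the higher dose. Their part in the enzymes' result was not tested. GAPDH, ENO1, PKM2 and LDHA supplied 69.2% and 69.0% of the enzyme reads in untreated cells and 66.1% and 65.9% at the higher dose.

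Among the 17 enzymes the largest falls were of PKM2, ENO1 and ENO2, which act after the split of fructose bisphosphate. Steps after the split did not all fall: TPI1 and PGAM1 had 0.05 and 0.08 at the higher dose. PFKM, which acts before the split, had −0.24 there. PKM2, the older symbol of the pyruvate kinase gene PKM that the files use, makes pyruvate and ATP; its count does not separate the splice forms. It was read at 2865 and 2730.1 CPM in untreated cells, 2349.6 and 2354 at the lower dose, and 2142 and 2129 at the higher dose. The groups stood in order of dose with no overlap. The log2 fold change was −0.25 ± 0.03 at the lower dose (adjusted p = 2.73e-11) and −0.39 ± 0.03 at the higher dose (adjusted p = 4.31e-19), the deepest fall of any of the 17 enzymes.

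ENO1 encodes the main enolase, which makes phosphoenolpyruvate. It stood at 3078 and 2929 CPM in untreated cells, 2616 and 2622 at the lower dose, and 2388 and 2341 at the higher dose. The log2 fold changes were −0.20 ± 0.03 (adjusted p = 1.93e-08) and −0.35 ± 0.03 (adjusted p = 5.85e-17). ENO2, the enolase first described in neurons, was far lower, at 60.7 and 61.3 CPM untreated, 53.5 and 54.4 at the lower dose, and 50.1 and 49.0 at the higher dose. It fell at both doses (log2 fold changes −0.18 ± 0.04, adjusted p = 0.000589, and −0.30 ± 0.04, adjusted p = 2e-08), and its share of the 2 enolases stayed between 1.87% and 1.99% per kilobase.

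GAPDH, the enzyme that makes the first NADH of the pathway and a common reference gene in expression assays, was itself lower after treatment. It was read at 5352 and 5194 CPM in untreated cells, 4751 and 4814 at the lower dose, and 4764 and 4639.8 at the higher dose. Both treated groups lay below the untreated one and overlapped each other. The log2 fold changes were −0.14 ± 0.03 (adjusted p = 1.4e-05) and −0.17 ± 0.03 (adjusted p = 1.78e-07), and between the doses −0.02 ± 0.03 (adjusted p = 0.509).

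LDHA, the lactate dehydrogenase subunit that favours lactate formation, was read at 2336 and 2264 CPM in untreated cells, 2109 and 2098 at the lower dose, and 2030.0 and 1998 at the higher dose. The log2 fold changes were −0.13 ± 0.03 (adjusted p = 5.8e-05) and −0.19 ± 0.03 (adjusted p = 4.55e-09). Between the doses its adjusted p was 0.0496, and this call was lost with the replicate letter as a block (adjusted p = 0.0602) and without each lower dose or higher dose library in turn. LDHB, the subunit that favours pyruvate, did not pass the test in any comparison (−0.04 ± 0.03 at each dose). Per kilobase, LDHB made up 30.9% and 32.0% of both subunits in untreated cells, 33.1% and 32.6% at the lower dose, and 33.7% and 33.8% at the higher dose. LDHB has the shorter transcript (1303 against 2416 nt), and these shares are not corrected for the trend with length described below. Under a length and GC correction LDHB was called lower at the higher dose (−0.19, adjusted p = 3.18e-10).

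PGK1, which makes the first ATP of the pathway, fell at both doses, with log2 fold changes of −0.17 ± 0.03 and −0.23 ± 0.03 at the lower and higher dose. GPI, the isomerase of glucose phosphate, fell likewise (−0.13 ± 0.03 and −0.21 ± 0.03). The phosphofructokinase genes PFKL, PFKM and PFKP, for the committing step of glycolysis, fell at the higher dose with log2 fold changes of −0.14 ± 0.03, −0.24 ± 0.04 and −0.19 ± 0.03. Their shares of the family per kilobase hardly moved, with PFKP at 65.1% to 66.0% in all 6 libraries. The lower dose call of PFKL (−0.13 ± 0.03) was lost without untreated replicate a (adjusted p = 0.0639).

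Not every enzyme fell at both doses. ALDOA, the main aldolase, had 1218 and 1178 CPM in untreated cells, 1143 and 1141 at the lower dose, and 1159.9 and 1144 at the higher dose, a narrow fall at the lower dose (−0.07 ± 0.03, adjusted p = 0.0338) that was lost in 6 of 13 alternatives. At the higher dose its value was −0.06 ± 0.03 (adjusted p = 0.0577). It was called lower there with upper-quartile normalization (−0.08, adjusted p = 0.00608) and with only the 2 groups compared (−0.06, adjusted p = 0.0463). TPI1, the isomerase that interconverts the products of the aldolase step, had log2 fold changes of 0.00 ± 0.03 and 0.05 ± 0.03 and did not pass. Its higher dose value was 0.09 without untreated replicate a and −0.07 under a length and GC correction. ALDOC, with 213 to 286 reads a library, did not pass either. PGAM1, a mutase between PGK1 and enolase, rose by 0.08 ± 0.03 at the higher dose (adjusted p = 0.00416), a call that was lost without untreated replicate b (adjusted p = 0.0565) and without higher dose replicate b (adjusted p = 0.0548).

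Hexokinase, the first step, split by isozyme. HK2, the inducible hexokinase raised in many tumours, was read at 96.3 and 97.6 CPM in untreated cells, 95.8 and 92.9 at the lower dose, and 118 and 117 at the higher dose. The higher dose libraries lay above all 4 others. It rose by 0.28 ± 0.03 at the higher dose (adjusted p = 7.29e-10) and by 0.31 ± 0.03 between the doses (adjusted p = 8.44e-11), with −0.04 ± 0.04 at the lower dose (adjusted p = 0.425). HK1, the constitutive form, was read at 211 and 206 CPM untreated and 192 in both higher dose libraries, a log2 fold change of −0.11 ± 0.03 (adjusted p = 0.00085). Its lower dose call (−0.10 ± 0.03) was lost without untreated replicate a (adjusted p = 0.0585) and without lower dose replicate a (adjusted p = 0.0927). Per kilobase HK2 made up 22.2% and 22.9% of the 2 hexokinases in untreated cells, 23.7% and 22.8% at the lower dose, and 27.7% and 27.5% at the higher dose.

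Across all genes tested the fold change fell with transcript length (Spearman rho −0.25 and −0.26 for the lower and higher dose against untreated and −0.19 between doses, over 12956 genes, which are not independent replicates). A correction for length and GC content moved several small values. Under it TPI1 turned to −0.07 at the higher dose (adjusted p = 0.0165), ALDOA, LDHB and SLC16A3 were called lower (−0.13, −0.19 and −0.06), PFKFB3 and CA12 were called higher (0.18 and 0.23), and the higher dose calls of HK1 (−0.04, adjusted p = 0.255) and PGAM1 (0.05, adjusted p = 0.0766) were lost. The other 22 of the 24 members called at the higher dose kept their call. At the lower dose the correction called TPI1 (−0.07, adjusted p = 0.023), LDHB (−0.13, adjusted p = 1.03e-05) and BNIP3L (−0.09, adjusted p = 0.0094) lower. It called PFKFB4 higher (0.14, adjusted p = 0.0163). The lower dose calls of HK1 (−0.06, adjusted p = 0.13) and CA12 (−0.13, adjusted p = 0.21) were lost. Processed pseudogenes resembling GAPDH, PGAM1, ENO1, LDHA and other enzyme mRNAs can divert reads at alignment, so the levels of these genes are less certain.

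**Figure D3:**
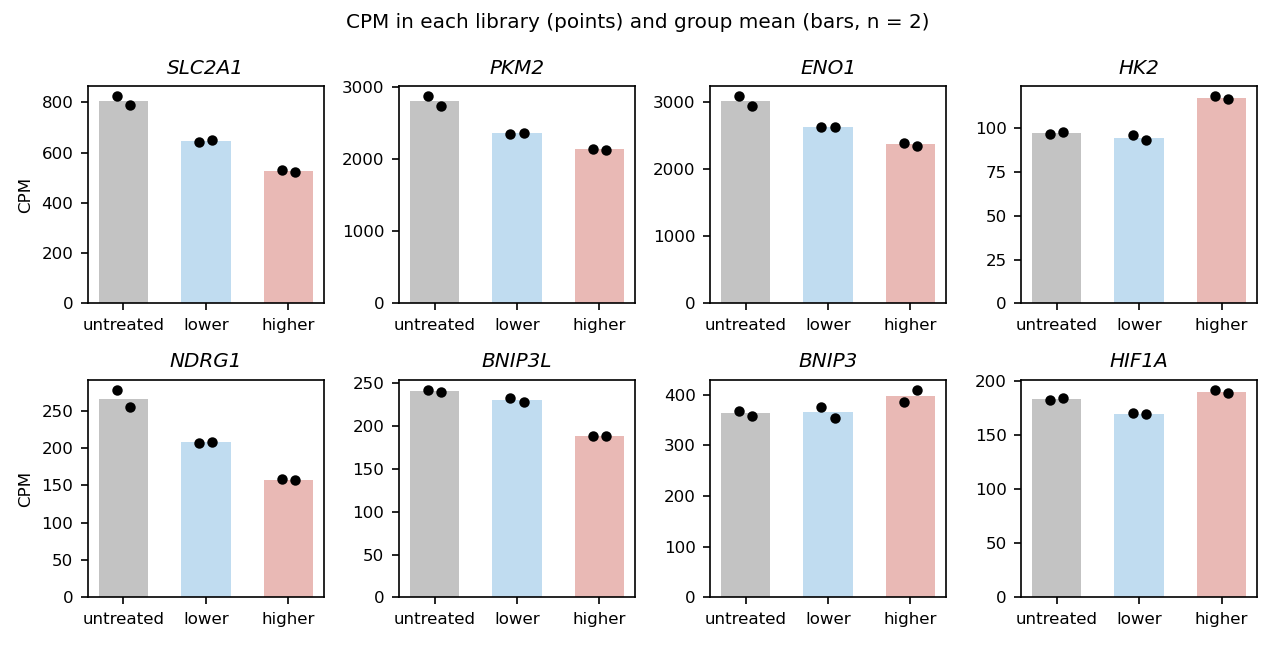
CPM of 8 genes in each of the 6 libraries (points) with the group mean (bars from 0, n = 2), by treatment group; each panel has its own vertical axis. SLC2A1, PKM2, ENO1 and NDRG1 step down with dose. BNIP3L is lowest at the higher dose (189 and 188 CPM), beside 242 and 239.5 untreated and 233 and 228 at the lower dose. HK2 is high only at the higher dose, and HIF1A is lowest at the lower dose.

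Of the 4 regulatory kinases none was called at the lower dose, and at the higher dose 2 rose and none fell, with a median of 0.14. That is 50% called, beside 56.3% of all genes tested. PDK1, a pyruvate dehydrogenase kinase that holds pyruvate back from the mitochondrial cycle and a known HIF target, was read at 18.3 and 16.2 CPM in untreated cells, 17.9 and 18.5 at the lower dose, and 21.8 and 20.3 at the higher dose. The higher dose libraries lay above all 4 others. It rose by 0.30 ± 0.07 at the higher dose (adjusted p = 0.000237) and by 0.21 ± 0.07 between the doses (adjusted p = 0.0127); the second call was lost without lower dose replicate a (adjusted p = 0.0914), without higher dose replicate a (adjusted p = 0.183) and with DESeq2 (adjusted p = 0.139). PFKFB4, a bifunctional enzyme that sets the level of the phosphofructokinase activator fructose 2,6-bisphosphate, rose by 0.20 ± 0.05 at the higher dose (adjusted p = 0.00026). PFKFB3, of the same family, had 0.07 ± 0.03 (adjusted p = 0.0593), and PDK3, an isozyme of PDK1, had −0.11 ± 0.08 (adjusted p = 0.28). Other genes of both families fell at the higher dose: PDK2 (−0.66 ± 0.04), at 21.6 CPM per kb the highest of the 4 PDK genes in untreated cells, PDK4 (−1.68 ± 0.29) and PFKFB2 (−0.36 ± 0.08). PDK2 and PFKFB2 are named after their values were seen. PDK1 made up 45.7% and 44.7% of PDK1 and PDK3 per kilobase in untreated cells and 53.3% and 51.0% at the higher dose.

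**Figure D4:**
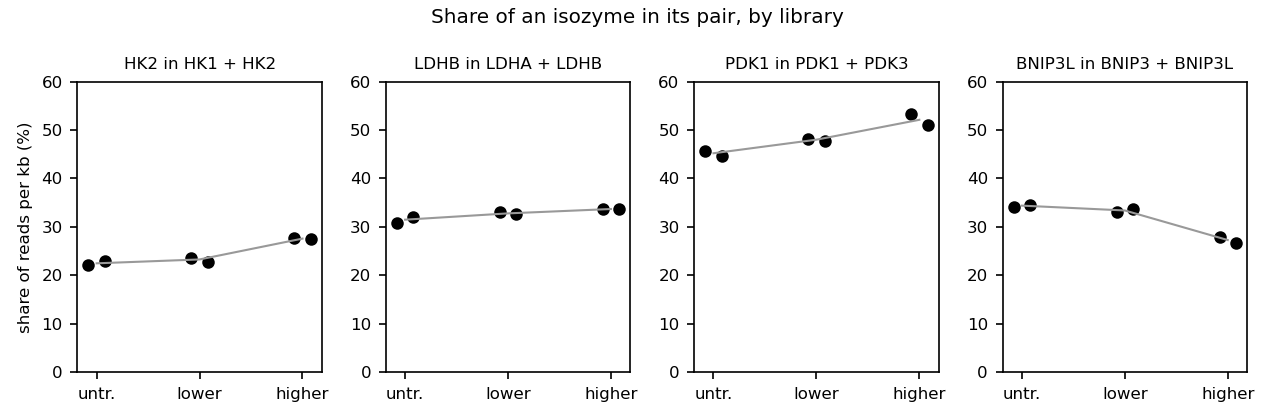
Share of 1 isozyme in the reads per kilobase of its pair (vertical axis, %), in each of the 6 libraries (points) with a line through the group means. HK2 goes from 22.2% and 22.9% in untreated cells to 27.7% and 27.5% at the higher dose, PDK1 from 45.7% and 44.7% to 53.3% and 51.0%, and BNIP3L falls from 34.2% and 34.6% to 27.9% and 26.7%.

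Of the 12 hypoxia targets 4 fell and none rose at the lower dose, where 15.9% of all genes tested fell and 16.7% rose. At the higher dose 5 fell and 2 rose, 58.3% called in all, near the 56.3% of all genes tested. NDRG1, a stress-responsive gene used as a marker of hypoxia, was read at 277 and 254 CPM in untreated cells, 207 and 208 at the lower dose, and 158 and 156 at the higher dose. Groups stood in order of dose with no overlap. The log2 fold change was −0.35 ± 0.03 at the lower dose (adjusted p = 1.75e-13), −0.75 ± 0.03 at the higher dose (adjusted p = 5.61e-27) and −0.40 ± 0.03 between the doses (adjusted p = 1.19e-14), in each comparison the deepest fall of the 38.

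The collagen prolyl hydroxylases, which HIF raises in matrix formation, fell together. P4HA1 was read at 119.5 and 108 CPM in untreated cells, 96.5 and 93.1 at the lower dose, and 87.2 and 90.3 at the higher dose. Its log2 fold change was −0.26 ± 0.04 at the lower dose (adjusted p = 1.39e-07) and −0.36 ± 0.04 at the higher dose (adjusted p = 8.91e-12). P4HA2 was read at 54.9 and 50.7 CPM, 42.8 and 45.5, and 41.7 and 40.0 in the same order, with −0.25 ± 0.05 (adjusted p = 1.84e-05) and −0.37 ± 0.05 (adjusted p = 2.69e-09). For both genes the untreated libraries lay above all treated ones, and between the doses neither passed the test (adjusted p = 0.0538 and 0.0723), though P4HA1 did in 7 of 13 alternatives and P4HA2 in 2. The share of P4HA1 in the pair stayed at 64.9% to 67.1% per kilobase.

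BNIP3L and ADM fell at the higher dose and did not pass at the lower dose. BNIP3L encodes a mitophagy receptor of the outer mitochondrial membrane. Libraries gave 242 and 239.5 CPM in untreated cells, 233 and 228 at the lower dose (−0.06 ± 0.03, adjusted p = 0.0953), and 189 and 188 at the higher dose (−0.35 ± 0.03, adjusted p = 1.39e-15). At the lower dose BNIP3L was called lower in 2 of 13 alternatives. Between the doses it fell further (−0.29 ± 0.03, adjusted p = 6.57e-12). ADM encodes adrenomedullin, a secreted peptide that widens vessels. Libraries gave 86.9 and 89.7 CPM in untreated cells, 82.7 and 87.1 at the lower dose (−0.06 ± 0.04, adjusted p = 0.237), and 72.2 and 70.7 at the higher dose (−0.31 ± 0.04, adjusted p = 6.27e-10).

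BNIP3, the close relative of BNIP3L with a similar role, went the other way. It was read at 368 and 358 CPM in untreated cells, 375 and 355 at the lower dose, and 386 and 408 at the higher dose. It rose by 0.13 ± 0.03 at the higher dose (adjusted p = 0.00015), by less than 1.2-fold, with no overlap with untreated cells. BNIP3L made up 34.2% and 34.6% of the pair per kilobase in untreated cells, 33.0% and 33.8% at the lower dose, and 27.9% and 26.7% at the higher dose. EGLN1, the main prolyl hydroxylase that marks HIF for destruction and is itself raised by HIF, had 89.4 and 89.2 CPM untreated and 96.4 and 99.2 at the higher dose, a rise of 0.13 ± 0.04 (adjusted p = 0.00131).

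Of the remaining hypoxia targets CA12 was called and the others were not. ERO1L, an oxidase of protein folding now named ERO1A, lay between 121 and 125 CPM in all 6 libraries. EGLN3, with 153 to 198 reads a library, and ANKRD37, with 164 to 197, did not pass in any comparison. CA12, a carbonic anhydrase, was read at 14.2 CPM in both untreated libraries, 12.4 in both lower dose libraries, and 14.9 and 15.6 at the higher dose. It rose by 0.30 ± 0.08 between the doses (adjusted p = 0.00168). Its lower dose call (−0.20 ± 0.08, adjusted p = 0.0464) was lost in 10 of 13 alternatives, including without either untreated or either lower dose library (adjusted p = 0.114 to 0.157).

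HIF1A, the alpha subunit, was read at 182 and 184 CPM in untreated cells, 170.5 and 169 at the lower dose, and 192 and 189 at the higher dose. The lower dose libraries were lowest and the higher dose libraries highest. Its log2 fold change was −0.11 ± 0.03 at the lower dose, a fall (adjusted p = 0.0032). It had 0.06 ± 0.03 at the higher dose (adjusted p = 0.109) and rose by 0.17 ± 0.03 between the doses (adjusted p = 1.14e-05). SLC16A3 and CA12 were also called lower at the lower dose and higher between the doses. Both comparisons use the lower dose libraries. HIF acts as a protein whose stability is regulated, and protein was not measured here.

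The HIF core letters were looked for in the 250 bases before the transcription starts of these genes, as ACGTG or GCGTG on either strand, so that CACGTG counts at 2 positions. RefSeq (GRCh38.p14) promoters were matched for 34 of the 38. A core was present before at least 1 start in 28 of the 34 (82.4%), including 14 of 17 enzymes and 8 of 10 hypoxia targets, beside 65.1% of 10201 genes tested. Counted by start, 36 of 61 windows (59.0%) held one, beside 54.9% of 14934 starts of tested genes and 43.2% of all 35114 starts. For the enzymes alone it was 19 of 37 (51.4%), below the share of starts of tested genes. For the hypoxia targets alone it was 8 of 10 (80%), above that share. Genes with several starts have more chances of a match, which the count by start removes. Windows of 6 genes from the results above are shown 5′ to 3′ on the gene's strand, ending at the base before the start, with cores in capitals: LDHA, ENO1 and ADM fell and hold cores, BNIP3 rose and holds 6 positions, and SLC2A1 and PKM2, the deepest falls of their groups, hold none in this window.
LDHA (chr11:18394313-18394562, plus strand): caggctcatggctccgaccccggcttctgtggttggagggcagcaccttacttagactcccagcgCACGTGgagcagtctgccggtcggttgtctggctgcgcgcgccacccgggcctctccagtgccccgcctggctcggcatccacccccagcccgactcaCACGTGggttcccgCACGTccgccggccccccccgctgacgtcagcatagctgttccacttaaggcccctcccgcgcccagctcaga
ENO1 (chr1:8878687-8878936, minus strand): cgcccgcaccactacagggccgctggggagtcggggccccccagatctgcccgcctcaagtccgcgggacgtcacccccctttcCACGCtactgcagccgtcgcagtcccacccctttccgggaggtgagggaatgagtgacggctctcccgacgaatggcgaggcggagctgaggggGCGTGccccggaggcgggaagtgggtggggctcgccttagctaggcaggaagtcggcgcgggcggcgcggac
ADM (chr11:10304823-10305072, plus strand): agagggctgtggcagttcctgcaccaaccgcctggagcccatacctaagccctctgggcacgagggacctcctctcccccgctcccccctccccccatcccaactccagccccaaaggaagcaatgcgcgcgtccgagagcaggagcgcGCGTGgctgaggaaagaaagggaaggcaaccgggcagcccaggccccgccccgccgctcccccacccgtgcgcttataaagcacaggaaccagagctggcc
BNIP3 (chr10:131981924-131982173, minus strand): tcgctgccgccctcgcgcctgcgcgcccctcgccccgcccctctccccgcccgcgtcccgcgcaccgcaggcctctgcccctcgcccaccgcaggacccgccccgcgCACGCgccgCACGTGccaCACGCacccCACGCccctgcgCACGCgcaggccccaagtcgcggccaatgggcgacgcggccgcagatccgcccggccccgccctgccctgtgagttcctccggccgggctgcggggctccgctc
SLC2A1 (chr1:42958869-42959118, minus strand): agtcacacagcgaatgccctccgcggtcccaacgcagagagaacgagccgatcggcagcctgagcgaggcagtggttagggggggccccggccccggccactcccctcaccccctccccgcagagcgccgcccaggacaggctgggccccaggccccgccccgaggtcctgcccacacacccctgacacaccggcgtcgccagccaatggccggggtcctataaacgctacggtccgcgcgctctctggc
PKM2 (chr15:72231191-72231440, minus strand): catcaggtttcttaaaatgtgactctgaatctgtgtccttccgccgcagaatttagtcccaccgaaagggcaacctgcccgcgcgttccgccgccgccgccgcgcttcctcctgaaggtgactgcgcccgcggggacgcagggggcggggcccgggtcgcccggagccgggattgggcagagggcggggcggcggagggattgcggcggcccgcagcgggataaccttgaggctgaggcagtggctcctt
LDHA holds 2 copies of CACGTG and a further CACGT. The 6 positions of BNIP3 lie between 143 and 104 bases before its start. The core of ADM begins 101 bases before the start, and those of ENO1 begin 166 and 72 bases before it. A match in letters is a description of the sequence, not a measured binding site.

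Set side by side, 14 of the 17 enzymes and 6 of the 12 hypoxia targets had a negative log2 fold change at the higher dose. Over all genes tested the median there was −0.0008, so negative values were about as common as positive ones. At the lower dose the median log2 fold change was −0.13 over the 17 enzymes, with a range from −0.25 (PKM2) to 0.01 (PGAM1), and −0.06 over the 12 hypoxia targets, from −0.35 (NDRG1) to 0.26 (CA9). At the higher dose it was −0.17 over the enzymes, with quartiles of −0.23 and −0.04, and −0.08 over the hypoxia targets, with quartiles of −0.35 and 0.13. The direction of the latter rests on the choice of genes: with HIF1A added to the list its median was 0.01. Without lower dose replicate a the hypoxia targets' median at the lower dose was −0.03. Between the doses the medians were −0.02 for the enzymes and 0.01 for the hypoxia targets. Falls were called for 64.7% of the enzymes and 41.7% of the hypoxia targets at the higher dose, beside 28.2% of all genes tested. At the lower dose the shares were 70.6% and 33.3%, beside 15.9%. The difference between the lists was not tested, and with 17 and 12 genes chosen by name these shares describe the genes listed.

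By library, the enzymes' median log2 CPM relative to the mean of the untreated libraries was 0.02 and −0.02 in the untreated libraries, −0.13 in both lower dose libraries, and −0.15 and −0.18 at the higher dose. For the hypoxia targets the medians were 0.01 and −0.01, −0.07 and −0.03, and −0.08 in both higher dose libraries. At the lower dose 12 enzymes were already called. Between the doses 29.4% of the enzymes and 25% of the hypoxia targets were called lower, beside 17.6% of all genes tested. Called higher were 11.8% and 25%, beside 16.4%. The 5 enzymes that fell between the doses were GPI, ENO1, ENO2, PKM2 and LDHA. ENO1 and PKM2 kept that last call in all 13 alternatives, whereas GPI, ENO2 and LDHA did not. Among the hypoxia targets NDRG1, BNIP3L and ADM fell between the doses, and CA12, BNIP3 and EGLN1 rose; the rise of BNIP3 (0.12 ± 0.03, adjusted p = 0.000716) was lost without lower dose replicate b (adjusted p = 0.0816) and without higher dose replicate b (adjusted p = 0.105). The rise of PGAM1 between the doses (0.08 ± 0.03, adjusted p = 0.0161) was lost without each lower dose or higher dose library in turn.

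**Figure D5:**
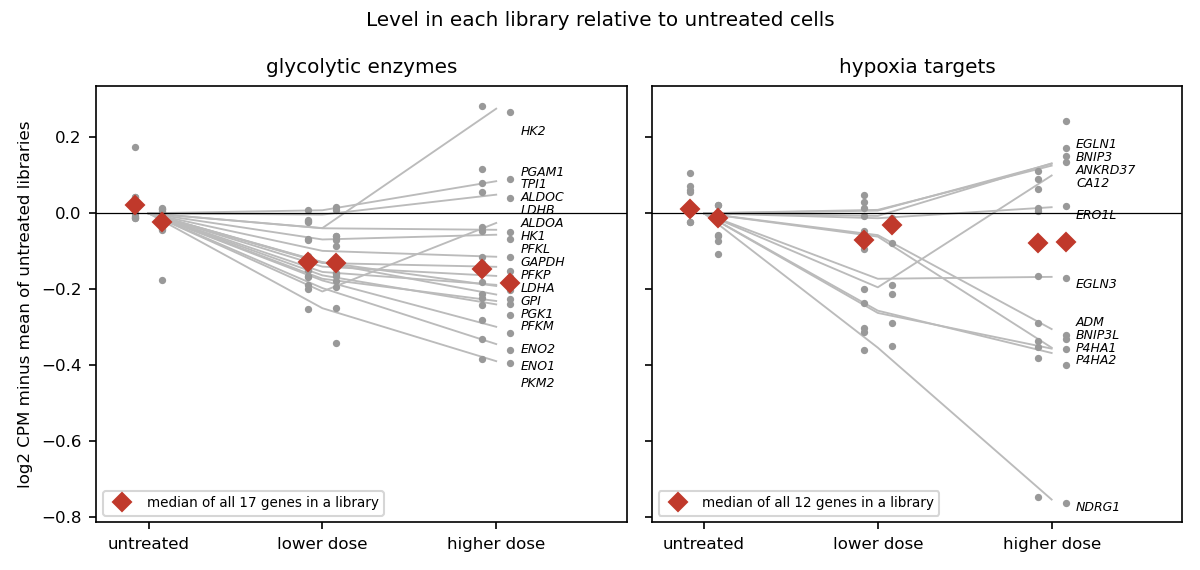
Level of each glycolytic enzyme (left) and hypoxia target (right) in the 6 libraries, as log2 CPM minus the mean of the untreated libraries (vertical axis), by group; small points are libraries, lines join group means and diamonds are the median of a library over the whole list. CA9 counts in the median but is not drawn. The enzymes' diamonds go from 0.02 and −0.02 to −0.15 and −0.18, with HK2 apart above, while the targets fan out from NDRG1 at −0.75 to values above 0.

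The same pathways hold further genes, which were listed by name as well. Of 36 tested further isozymes and genes of pyruvate entry, 15 fell and 8 rose at the higher dose (41.7% and 22.2%, beside 28.2% and 28.1% of all genes tested), with a median of −0.08. The largest falls were of PDK4 (−1.68 ± 0.29), a pyruvate dehydrogenase kinase induced by fasting, SLC2A12 (−1.07 ± 0.09), the glucose transporter GLUT12, and LDHD (−0.70 ± 0.23), the D-lactate dehydrogenase. PDK4 was low, at 1.79 and 1.75 CPM untreated and 0.355 and 0.737 at the higher dose. The largest rises were of PGAM5 (0.58 ± 0.04), a mitochondrial phosphatase despite its name, HKDC1 (0.58 ± 0.23), a hexokinase relative, and C12orf5 (0.34 ± 0.06), now TIGAR, which lowers fructose 2,6-bisphosphate. LDHD and HKDC1, both under 2.2 CPM, lost their call with DESeq2 (adjusted p = 0.11 and 0.194). LDHD also lost it without untreated replicate b (adjusted p = 0.157) and without higher dose replicate b (adjusted p = 0.122), and HKDC1 without either untreated library (adjusted p = 0.099 and 0.0716) and without higher dose replicate a (adjusted p = 0.271).

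Most genes of the side branches fell. Of 19 tested genes of the pentose phosphate pathway and glycogen, 14 fell and 2 rose at the higher dose (73.7% and 10.5%, beside 28.2% and 28.1% of all genes tested), with a median of −0.15. H6PD, the dehydrogenase that opens the pentose pathway inside the endoplasmic reticulum, had the deepest fall of the list (−0.53 ± 0.04). PGM2L1, which makes glucose 1,6-bisphosphate, followed at −0.36 ± 0.11. The call of PGM2L1 was lost without higher dose replicate a (adjusted p = 0.0791) and with DESeq2 (adjusted p = 0.074). The rises were of RPIA (0.49 ± 0.05) and RPE (0.29 ± 0.05), the isomerase and epimerase that interconvert pentose phosphates.

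Of 17 tested HIF pathway factors 7 rose and 6 fell at the higher dose (41.2% and 35.3%, beside 28.1% and 28.2% of all genes tested), with a median of 0.02. EPAS1, the alpha subunit HIF2A, was read at 49.9 and 48.0 CPM in untreated cells, 39.4 and 35.8 at the lower dose, and 32.4 and 29.4 at the higher dose. The log2 fold changes were −0.38 ± 0.05 and −0.66 ± 0.05 (adjusted p = 2.33e-08 and 3.38e-16), where HIF1A had −0.11 ± 0.03 and 0.06 ± 0.03. ARNT2, a beta subunit, and OS9, an endoplasmic reticulum lectin, also fell (−0.71 ± 0.05 and −0.71 ± 0.03). ARNT, the main beta subunit and singled out here after its value was seen, had −0.42 ± 0.06 (adjusted p = 8.39e-09). SIAH2, a ubiquitin ligase that targets HIF prolyl hydroxylases, rose by 0.73 ± 0.06. TCEB1, now ELOC, a subunit of the VHL ligase complex, rose by 0.49 ± 0.04, and EGLN2, a HIF prolyl hydroxylase, by 0.46 ± 0.10.

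Of 51 further genes tested, listed as HIF targets from general knowledge, 17 fell and 15 rose at the higher dose, with a median of −0.02. That is 33.3% lower and 29.4% higher, near the 28.2% and 28.1% of all genes tested. Whether HIF regulates each of them in these cells was not tested. VEGFA, the main growth factor of blood vessels, was read at 168 CPM in both untreated libraries, 199 and 198 at the lower dose, and 245 and 248 at the higher dose. It rose by 0.24 ± 0.03 and 0.55 ± 0.03 (adjusted p = 3.23e-09 and 3.99e-23), in order of dose with no overlap, the opposite course to SLC2A1 and NDRG1. C7orf68, now HILPDA, a lipid droplet protein, rose by 0.68 ± 0.09, and DDIT3, the stress factor CHOP, by 0.49 ± 0.06. The largest falls were of SLC6A6 (−0.85 ± 0.04), the taurine transporter, MXI1 (−0.81 ± 0.07), a MYC antagonist, and EDN1 (−0.64 ± 0.07), endothelin 1. GBE1, the glycogen branching enzyme, stands in both of the last list and that of the side branches.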

How the data were processed

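The authors deposited 1 file of integer read counts by gene symbol for each library. The submitters' processing notes name CASAVA 1.8.1, TopHat 1.4.0, HTSeq and build hg19; the authors' annotation, counting mode and use of strand are not given in these sources, so overlapping and antisense genes cannot be told apart. Each file held 21619 genes and 5 summary lines; the latter, 9.4% to 10.2% of the reads of a library, were left out. Library sizes with TMM factors (0.9970 to 1.0030) gave CPM. edgeR 4.0.16 in R 4.3.3 fitted all 6 libraries in 1 model with 3 group means (filterByExpr, robust quasi-likelihood F test, two-sided, Benjamini-Hochberg over 13548 genes), with 8071 genes not tested. A fold change is given with its standard error (SE) from that model. The scripts were tested on simulated data. Each replicate was counted as a sample. Replicates differed by more than counting noise (chi-square per degree of freedom 1.98, 1.69 and 1.52). Beyond that noise their spread was small, with a common coefficient of variation of 1.79%. These values cannot tell separate cultures from repeated libraries of the same culture. Limits given for a count of 0 cover counting error only. Transcript lengths and GC content (92.4% of genes matched) were from GENCODE v29, promoters from RefSeq, both GRCh38; no coordinate was carried between builds. Members and lists were chosen with earlier results of these data known. Full values were given for members called in at least 1 comparison and changed at least 1.2-fold at the higher dose, for the 5 with the highest CPM and for HIF1A; other genes were named as the 3 largest called rises and falls of their list, of which 1 is not reported here. Alternatives were DESeq2 1.42.0, 2 other normalizations, no filter, the replicate letter as a block, 2 groups at a time, a length and GC correction, wider lists and leaving out each library.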

Additional observations from a re-analysis of the deposited data

How the results depend on the processing

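Over 13 alternatives and 3 comparisons, 1387 of 1476 single-gene values of the 38 members kept their direction and side of the threshold, 51 lost their call, 37 gained one and 1 reversed (TPI1 at the higher dose, from 0.05 to −0.07 under the length and GC correction). Of 930 values of the other named genes 867 kept theirs, 56 lost and 7 gained a call. DESeq2 called 2562 genes at the lower dose and 2758 between the doses, beside 4418 and 4612. Upper-quartile normalization put the higher dose medians at −0.19 (enzymes) and −0.10 (hypoxia targets). The length and GC correction called 1 member higher at the lower dose (PFKFB4), as did leaving out lower dose replicate b (SLC16A1), so that the count ranged from 0 to 1. With kinases and transporters added to the enzymes and HIF1A to the hypoxia targets, the higher dose medians were −0.11 and 0.01 (the second reversed), a difference of −0.13.

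With 1 library left out, the difference of medians (enzymes minus hypoxia targets) ranged from −0.10 to −0.04 at the lower dose, from −0.11 to −0.06 at the higher dose and from −0.08 to 0.02 between the doses (reversed without higher dose replicate b). The median of the hypoxia targets ranged from −0.08 to −0.03 at the lower dose and from −0.02 to 0.05 between the doses, and that of the enzymes from −0.20 to −0.15 at the higher dose. Members called higher between the doses numbered 5 to 10, with 5 without higher dose replicate a. The causes were not tested. Members called lower at the higher dose numbered 18 to 20, and genes called there 6378 to 7631.

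The letters a and b are not stated to mark a shared culture, and deviations of same-lettered libraries correlated at −0.04, 0 and −0.03, so the letters were not taken as pairs. With the replicate block 4320, 7561 and 4516 genes were called at the lower dose, the higher dose and between the doses, and of the members' calls only that of LDHA between the doses was lost. The labels of the doses combine both factors, so their separate parts cannot be compared. CA9 and SLC16A1, with few reads, are too imprecise to show changes of the size seen in the other members, and 2 libraries a group limit all precision.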
